A study of Mus musculus with 2 samples.

Results

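The cells that the authors named red blood cells form 1 of the 12 clusters found by scRNA-seq of primary hepatocyte preparations from the mouse liver. The members described here are the genes that the authors' marker table lists for that cluster, and they number 320 of the 1755 genes in the table (18.2%). Each listed gene comes with 2 values, the share of the cluster's cells in which it was detected (a value above 0) and the same share among all other cells pooled. The cells came from 2 libraries of wild type BALB/c mice, 1 from mice given PBS and 1 from mice given rIL-33 (recombinant interleukin-33) at 0.5 µg intraperitoneally each day for 5 days. Per the study's methods the mice were young adults, fasted before the livers were perfused with Liberase, and no sort of the hepatocyte suspension is described. Both libraries are pooled in the table. PBS and rIL-33 therefore cannot be compared here, there are no replicates and no test was run. The cluster was drawn from the same cells as its marker genes, so the difference between its cells and all others is a description.

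Red blood cells arise from nucleated precursors that divide several times while they build heme and hemoglobin, and in mammals they expel the nucleus before they enter the blood, after which they neither divide nor transcribe. Heme is made from glycine and succinyl-CoA in a chain of enzymes that begins and ends in the mitochondrion, with iron taken up through the transferrin receptor. In mice this process sits in the fetal liver before birth and mainly in bone marrow and spleen afterward.

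The cluster was small. From the balance between both shares of the 1115 genes listed for 2 or more clusters, it held 0.708% of all cells, and single genes gave values with an SD of 0.0941 percentage points over 106 genes. The 5 hepatocyte clusters together held 90% of the cells, so a share among all other cells is mostly a share among hepatocytes. Shares in the cluster came in steps of at least 1.2 percentage points, and smaller differences between its genes cannot be resolved. As the cluster holds few cells, its shares carry counting error, for which no interval was computed. The depth of the libraries is unknown.

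Of the 320 genes, 319 were detected in a larger share of the cluster than of the other cells. The median gene was detected in 57.5% of the cluster and 25.1% of cells outside it, 33.7 points apart. In the cluster 208 genes reached at least 50% of the cells and 37 reached at least 90%, while 29 were found in under 5% of the cells outside it. The exception was Xpo7, a nuclear export receptor, detected in 28.8% of the cluster and 29.3% of cells outside it, values less than 1 step apart. Every row of the table has at least 1 share of 25% or more, and the lowest genes of the cluster (Hat1, Slc16a6, Sept8, Bcl2l11 and Tfdp1) stood at exactly 25%.

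The largest differences between both shares that are reported here were those of Alas2, Aqp1, Cd24a, Car2, Klf1, Slc25a37, Ube2c, Isg20 and Ccnb2, which ranged from 76.8 to 90.1 points. Large ratios were found for Spire1, an actin nucleator, with 58.8% against 0.5%, and Ccnb2 (cyclin B2) with 77.5% against 0.7%, for which 45.6% and 44.1% of the positive cells lay in the cluster. Tinagl1 (36.2% and 0.4%), Tmcc2 (37.5% and 0.6%), Cdr2 (66.2% and 1.3%), Lpcat1 (45% and 1.2%), Sgo2a (28.8% and 0.8%), Endod1 (32.5% and 1%) and Mcm6 (33.8% and 1.2%) had large ratios as well. Spire1, Tinagl1 and Tmcc2 were also listed for the small HSC / fibroblast cluster, at higher shares (63.2%, 47.4% and 57.9%). Mcm6 was also listed for T cell (25%), and Ccnb2, Cdr2, Lpcat1, Sgo2a and Endod1 for no other cluster. A large difference did not mean that most positive cells were in the cluster. Alas2 was detected in nearly every cell of the cluster, yet 8.59% of all Alas2-positive cells lay there, and for Car2, found in all of its cells, the value was 3.69%. Free RNA in the droplets can place transcripts in cells that do not make them, and its part in the shares outside the cluster was not tested.

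**Figure D1:**
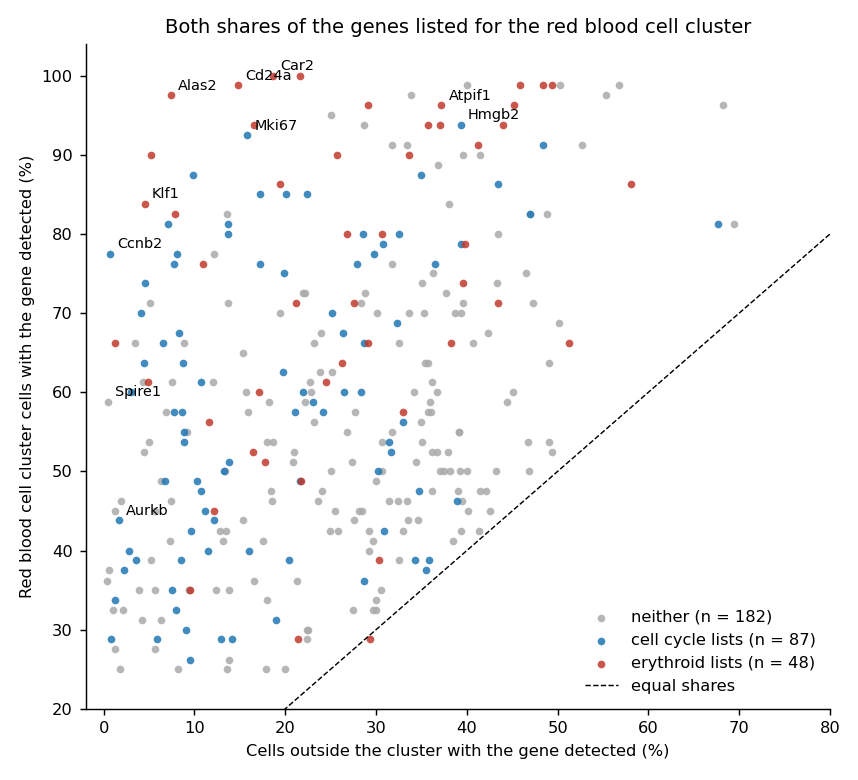
Share of cells with the gene detected in the red blood cell cluster (vertical axis, percent) against the share in all other cells (horizontal axis, percent) for 317 of the listed genes, 1 point a gene, colored by the cell cycle lists (87 genes), the erythroid lists (48 genes) or neither (182 genes). Nearly all points lie above the dashed line of equal shares; Alas2, Klf1 and Ccnb2 lie far to the upper left, while Hmgb2 and Atpif1 were also detected in 37.2% or more of the other cells.

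The name was compared with 5 markers and 5 lists of erythroid genes. The markers were taken from the cluster's own rows, so that they were listed is no check of the name. Car2, the carbonic anhydrase of red cells (chr3:14886273-14900770), was detected in 100% of the cluster and 18.6% of cells outside it. Cd24a, a glycosylphosphatidylinositol-anchored surface protein carried by erythroid precursors (chr10:43578284-43584265), had 98.8% and 14.8%. It was also listed for B cell (59.1%) and Neutrophil (43%). Atpif1, an inhibitor of the mitochondrial ATP synthase that is needed for heme synthesis, had 96.3% and 37.2%. The other two are genes of dividing cells: Mki67, which encodes the proliferation antigen Ki-67, had 92.5% and 15.8%, and Hmgb2, a chromatin protein that rises in cycling cells, had 93.8% and 39.3%. Of the 167 genes in the erythroid lists 62 were in the table, and 50 of these (80.6%) were listed for the cluster, against 18.2% of all genes in the table. The table holds only genes listed for at least 1 cluster, and the lists were chosen with earlier results of these data known, so these shares are descriptions. The remaining 105 genes of the lists have no value here, among them Gata1, Epor and Slc4a1, and so do all 12 genes of a list of hemoglobins and their chaperone Ahsp. The hemoglobin genes, which define the lineage, were therefore not analysed here.

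The 7 enzymes of the heme pathway described here were all listed for the cluster, and none of them was listed for another non-hepatocyte cluster. Alas2, the erythroid form of the first and rate-limiting enzyme (chrX:150547375-150570638), was detected in 97.5% of the cluster and 7.4% of cells outside it. Alad, Uros and Urod, enzymes of later steps, had 91.2%, 71.3% and 90% in the cluster and 41.2%, 21.2% and 25.7% outside it. Cpox and Ppox, which oxidize the porphyrin ring, were lower in the cluster at 66.2% and 52.5%, with 51.2% and 16.4% outside, and Fech, the ferrochelatase that inserts the iron, had 93.8% and 44%. The detection along the pathway was thus uneven: 4 of the 7 enzymes reached at least 90% of the cells, and the low points were the 2 oxidases next to the last step. Fech and Cpox were also listed for Hepatocyte4, a hepatocyte cluster in which Fech was detected in 75.2% and Cpox in 75.9% of the cells. Alas1, the form of the first enzyme used in other tissues, was not listed for the red blood cell cluster but for Hepatocyte3 (48.3% in that cluster and 41.7% outside it).

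Also listed were 5 partners of the pathway. Slc25a37 (mitoferrin-1), which carries iron into the mitochondrion, was detected in 100% of the cluster and 21.6% of cells outside it. Abcb10, a mitochondrial transporter bound to it, had 66.2% and 29.1%. Tmem14c, which moves a porphyrin precursor across the inner membrane, had 71.3% and 43.4%, and Abcg2, an exporter of porphyrins, had 71.3% and 27.6%. Of these, Abcg2 was also listed for Hepatocyte5 and Tmem14c for T cell, while Abcb6, another porphyrin transporter, was listed only for Hepatocyte5. Atpif1, described above, is the remaining partner. It was also listed for B cell and HSC / fibroblast (73.7% in each), T cell (49.3%) and Kupffer cell (41.1%).

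Iron uptake was represented by Tfrc, the transferrin receptor, with 96.3% and 29.1%. Glrx5, a glutaredoxin of iron-sulfur cluster assembly whose clusters heme synthesis depends on, had 98.8% and 48.4%, and Hscb, a co-chaperone of the same assembly, had 41.2% and 17.6%. Tfrc was also listed for Kupffer cell, in which its share was 13.2%. The iron genes listed only elsewhere belonged to other clusters: Tfr2, the second transferrin receptor, to Hepatocyte4 and Hepatocyte5 (78.1% and 97.4%), and Slc40a1, the iron exporter ferroportin, to Kupffer cell (92.7% in that cluster and 34.6% outside it). Slc40a1 was also listed for Neutrophil, where its share of 32.5% was below the 36.2% outside.

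**Figure D2:**
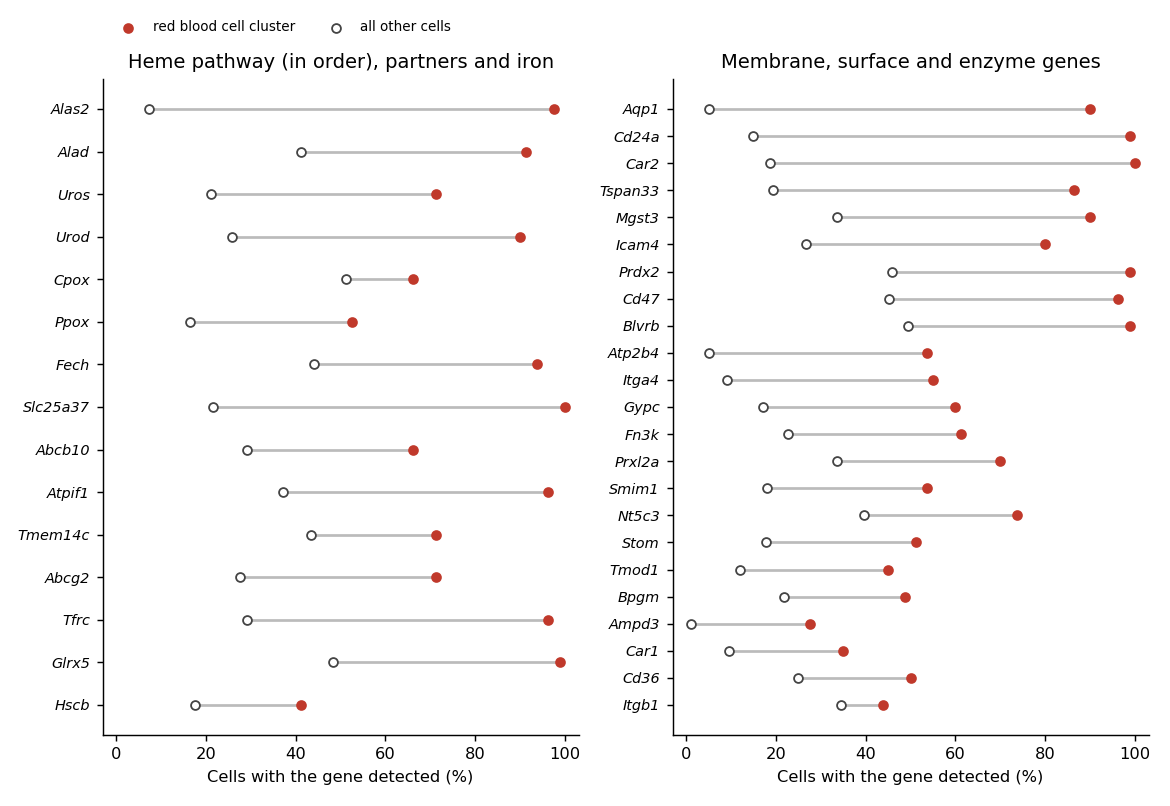
Share of cells with the gene detected (horizontal axis, percent) in the red blood cell cluster (filled points) and in all other cells (open points) for the heme pathway enzymes in order, their partners and the iron genes (left) and for the membrane, surface and enzyme genes (right). Alas2, Slc25a37 and Car2 reached 97.5% to 100% of the cluster, and Cpox and Itgb1 show the shortest lines at 15.0 and 9.2 points.

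Among 13 genes of the red cell membrane and surface, Aqp1, the water channel of red cells (chr6:55336432-55348555), had the largest difference, with 90% of the cluster and 5.2% of cells outside it. It was also listed for HSC / fibroblast, a cluster name kept as the table has it (68.4%), and for Endothelial cell (29.6%). Tspan33, a tetraspanin of erythroid precursors, had 86.3% and 19.4%, and Icam4, the Landsteiner-Wiener blood group protein, had 80% and 26.8%. Cd47, the signal that keeps macrophages from engulfing a cell, had 96.3% and 45.2%, and was listed for T cell, B cell, Kupffer cell and HSC / fibroblast too. Genes of the skeleton and some of the blood groups had lower shares. Gypc (glycophorin C) had 60% and 17.1%, Smim1, which carries the Vel blood group, 53.7% and 18%, Stom (stomatin) 51.2% and 17.8%, and Tmod1, the cap of the short actin filaments of the red cell skeleton, 45% and 12.1%. The calcium pump Atp2b4 (53.7% and 5%), the integrins Itga4 (55% and 9.2%) and Itgb1 (43.8% and 34.6%) and the scavenger receptor Cd36 (50% and 25%) complete the group. Atp2b4 and Gypc were higher in HSC / fibroblast (63.2% and 68.4%), and Itga4 in B cell (64%) and T cell (57.4%). Itgb1 was higher in every cluster that also listed it, up to 89.5% in HSC / fibroblast. Lower shares were those of Itga4 in Kupffer cell (27.8%) and Neutrophil (32.1%), Atp2b4 in T cell (42.6%) and Cd36 in Endothelial cell (38%). Slc29a1, a nucleoside transporter, and Aqp9, a glycerol channel, were in the table for other clusters only, both for Hepatocyte4 and Hepatocyte5, and Slc29a1 also for HSC / fibroblast (73.7% in that cluster and 43.6% outside it) and Kupffer cell (42.4% and 43.7%).

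Of 9 erythroid regulators, Klf1, the zinc finger factor that activates globin and heme genes (chr8:84901928-84905291), was detected in 83.8% of the cluster and 4.5% of cells outside it. Lmo2, the bridge protein of the Gata1 and Tal1 complex, had 82.5% and 7.9%. Sox6, a repressor of embryonic globin, had 76.2% and 10.9%, and E2f2, a cell cycle factor of late erythroid precursors, had 61.3% and 4.9%. For these 4 the share outside the cluster was lowest among the regulators. Zfpm1 (Fog1), the partner of Gata1, had 80% and 30.7%, Rb1, the retinoblastoma protein, 56.2% and 11.6%, the antiproliferative Btg2 78.7% and 39.8%, cyclin D3 (Ccnd3) 66.2% and 38.2%, and Mllt3 28.8% and 21.4%. Klf1, Sox6 and E2f2 were listed for no other cluster. Lmo2 was listed for B cell (26.3%) and Kupffer cell (27.5%), Zfpm1 for Endothelial cell (38%) and Rb1 for B cell (26.7%). Btg2 was listed for B cell (50.2%), Neutrophil (41.8%) and Kupffer cell (37.1%), and Ccnd3 for T cell (60.1%) and Neutrophil (35.4%). Mllt3 was listed for T cell, at a higher share (47.3%). Ikzf1, a factor of lymphoid and erythroid cells, was listed for T cell, B cell and Kupffer cell but not for this cluster.

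The 11 red cell enzymes and antioxidant genes included Car2, and none of the 11 was listed for another non-hepatocyte cluster. Prdx2, the abundant peroxiredoxin of red cells, had 98.8% of the cluster and 45.8% of cells outside it, and Blvrb, a biliverdin and flavin reductase, had 98.8% and 49.4%. Mgst3, a microsomal glutathione transferase, had 90% and 33.6%, and Prxl2a, a peroxiredoxin-like protein, 70% and 33.6%. Nt5c3, which removes pyrimidine nucleotides when RNA is broken down in maturing red cells, had 73.8% and 39.6%, and Fn3k, which repairs glycated proteins, 61.3% and 22.7%. Lower in the cluster were Bpgm, the enzyme that makes 2,3-bisphosphoglycerate (48.8% and 21.7%), Car1, another red cell carbonic anhydrase (35% and 9.5%), and Ampd3, the red cell AMP deaminase (27.5% and 1.2%). Cat, Sod1, Pkm, Gapdh and Eno1 of the same list were in the table for other clusters only. Further genes of that list are described with their functions here, namely Isg20, Cdr2, Ubac1, Mkrn1, Trak2, Ube2l6, St3gal5, Rsad2 and Xpo7. Of the 17 listed genes of that list 6 were also listed for another non-hepatocyte cluster. They were Isg20, Mkrn1, Trak2, St3gal5, Rsad2 and Xpo7.

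For the 3 erythroid genes with the largest difference that have an entry in the RefSeq promoter table (GRCm38.p6), the promoter is shown from 250 bases before to 30 after the annotated start, 5′ to 3′ on the strand of the gene. Cd24a and Car2 rank among them and have no entry. Capitals mark AGATAA and TGATAA, the letters that GATA factors bind, CCACACCC, bound by Klf1, CCAAT, bound by NF-Y, and TTTGAA and TTCGAA, the cell cycle homology element of late cell cycle genes, each on either strand.
Alas2, chrX:150547167-150547446, plus strand: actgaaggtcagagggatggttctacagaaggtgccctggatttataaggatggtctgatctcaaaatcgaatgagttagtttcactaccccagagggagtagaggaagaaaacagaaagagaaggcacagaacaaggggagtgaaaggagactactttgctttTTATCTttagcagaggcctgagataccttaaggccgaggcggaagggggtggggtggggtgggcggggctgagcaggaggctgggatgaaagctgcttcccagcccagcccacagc
Aqp1, chr6:55336049-55336328, plus strand: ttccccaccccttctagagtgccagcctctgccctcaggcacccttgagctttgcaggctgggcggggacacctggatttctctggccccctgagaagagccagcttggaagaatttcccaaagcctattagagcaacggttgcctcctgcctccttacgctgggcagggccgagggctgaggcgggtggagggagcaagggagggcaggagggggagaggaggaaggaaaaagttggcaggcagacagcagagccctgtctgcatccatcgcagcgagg
Klf1, chr8:84901732-84902011, plus strand: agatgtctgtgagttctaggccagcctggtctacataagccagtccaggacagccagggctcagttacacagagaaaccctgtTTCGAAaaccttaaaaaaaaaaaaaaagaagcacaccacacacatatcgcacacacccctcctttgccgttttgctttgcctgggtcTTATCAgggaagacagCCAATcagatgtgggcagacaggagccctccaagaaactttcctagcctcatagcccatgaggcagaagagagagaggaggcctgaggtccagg
In the 300-base windows, which run 250 bases before to 50 after the start, Alas2 held AGATAA on the opposite strand 86 bases before the start. Klf1 held TGATAA on the opposite strand 80 bases before it, CCAAT 64 bases before it and TTCGAA 167 bases before it, and the Aqp1 window held none of these letters. AGATAA or TGATAA was present in 13.8% of the 58 windows of 39 listed erythroid genes, in 12.9% of the 1751 windows of genes in the table and in 18.6% of all 32851 windows. CCACACCC stood in 1.72%, 4.45% and 3.56% of the same 3 sets. The GATA letters thus stood in similar shares of the erythroid and the tabled windows, and CCACACCC in 1 of the 58 erythroid windows.

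Genes of the cell cycle outnumbered the erythroid genes, 87 to 50. Of the 161 genes in lists of S phase and of G2 and M phase, 88 were in the table and 87 (98.9%) were listed for the cluster, against 18.2% of all genes. They were 27.2% of the cluster's genes, compared with 6.19% for T cell, 5.48% for B cell, 4.08% for Endothelial cell, 2.06% for HSC / fibroblast, 1.33% for Neutrophil and 1.2% for Kupffer cell. All 60 tabled genes of G2 and M phase and 27 of 28 of S phase were listed, the exception being Hells, a chromatin remodeler listed for T cell (27%). The table holds only genes listed for at least 1 cluster, and 42 of the 87 genes were listed for no other cluster. These shares of tabled genes are therefore descriptions, and the other 73 genes of the lists have no value here. Genes of G2 and M phase were detected in more of the cluster than those of S phase. Their median was 68.2% in the cluster and 14.9% outside it, and the median of the S phase genes was 47.5% and 19%. At least 50% of the cells was reached by 44 of the 60 and by 11 of the 27. Mature red blood cells have no nucleus and do not divide, so these genes go against the cluster's name where it is read as mature red cells, and the name is kept here only as that of the authors' rows.

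**Figure D3:**
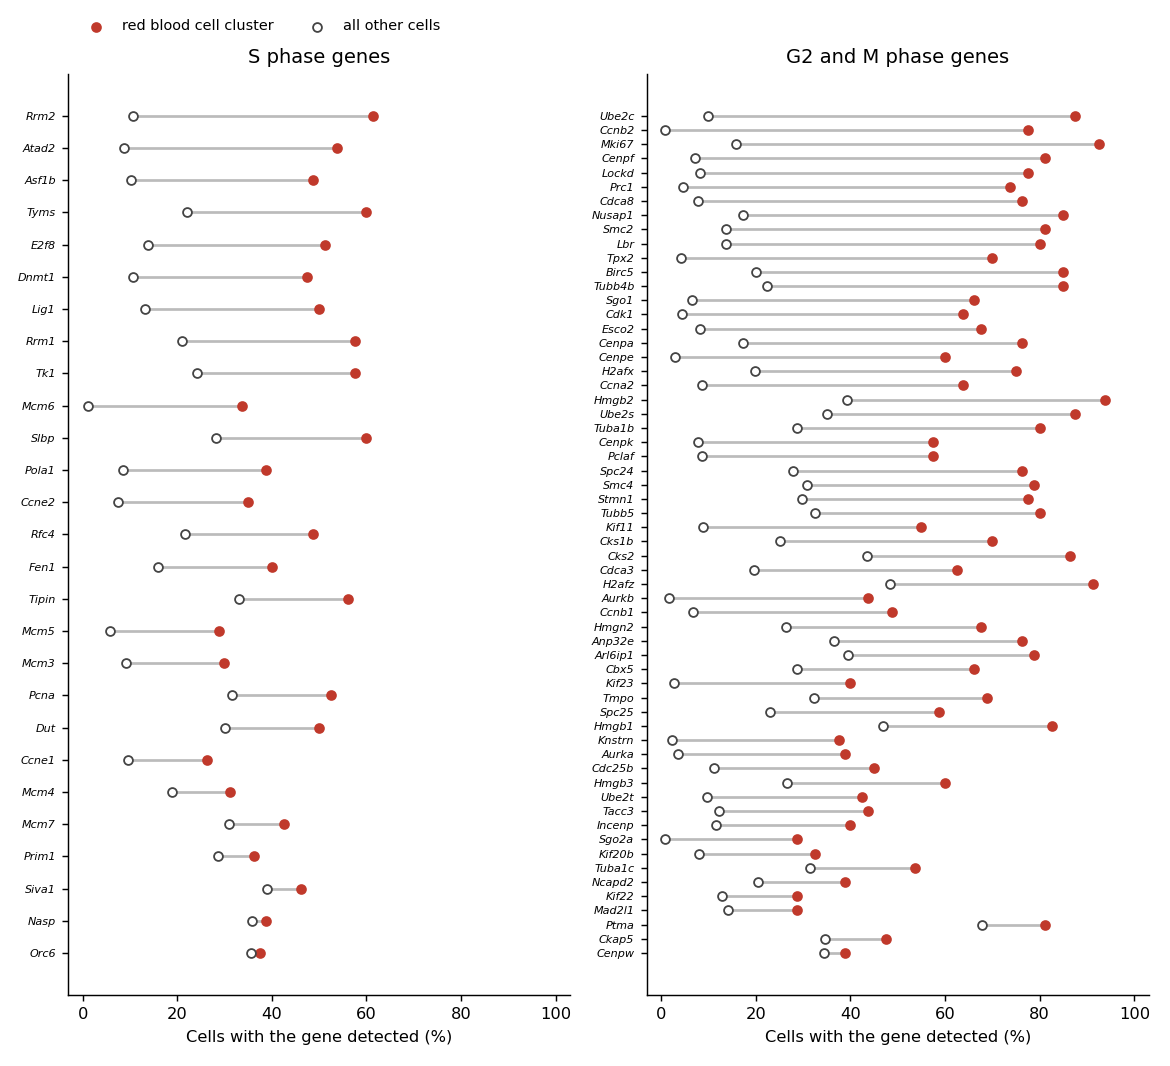
Share of cells with the gene detected (horizontal axis, percent) in the red blood cell cluster (filled points) and in all other cells (open points) for the 27 S phase genes (left) and the 60 G2 and M phase genes (right), ordered by the difference. The S phase genes reached at most 61.3% of the cluster (Rrm2), while the G2 and M phase genes reached 93.8% (Hmgb2).

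Mitosis and the spindle formed the largest functional group, with 59 genes, a median of 60% in the cluster and 12.9% outside it. Among cyclins and their regulators, Ccnb2, Ccna2 (63.7% and 8.7%), Ccnb1 (48.8% and 6.8%) and the kinase they activate, Cdk1 (63.7% and 4.4%), were rare outside the cluster. Its small subunits Cks2 (86.3% and 43.4%) and Cks1b (70% and 25.1%) were more widespread, and the phosphatase Cdc25b had 45% and 11.2%. Cdkn2d, an inhibitor of the cyclin D kinases, was detected too, in 67.5% and 23.9%. The anaphase-promoting complex marks mitotic proteins for destruction, and its ubiquitin-conjugating enzymes Ube2c (87.5% and 9.8%) and Ube2s (87.5% and 35%) were detected in equal shares of the cluster. Its substrate Pttg1 (securin) had 77.5% and 12.2%, its inhibitor Fbxo5 60% and 15.7%, its activator Fzr1 55% and 31.8%, and the checkpoint protein Mad2l1 28.8% and 14.1%.

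The chromosomal passenger complex, which corrects faulty attachment of chromosomes, was present with all 4 genes in the table. Birc5 (survivin) had 85% and 20.1%, Cdca8 (borealin) 76.2% and 7.8%, the kinase Aurkb 43.8% and 1.7%, and Incenp 40% and 11.5%. Aurka had 38.8% and 3.6%, its activator Tpx2 70% and 4.1%, and Plk4, the kinase of centriole duplication, 42.5% and 12.8%. Both aurora kinases were detected in fewer of the cluster's cells than Birc5, Cdca8 and Tpx2.

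The 12 genes of the centromere and kinetochore, the structure that holds chromosomes on the spindle, ranged from 28.8% to 81.2% in the cluster with a median of 7.45% outside it. Cenpf (81.2% and 7.1%), Cenpa, the histone variant that marks centromeres (76.2% and 17.2%), Spc24 (76.2% and 27.9%), Sgo1, which protects sister chromatid cohesion (66.2% and 6.5%), and the motor Cenpe (60% and 3%) led the group. Spc25, Cenpk, Cenpq, Cenpp, Cenpw, Knstrn and Sgo2a had 58.8% or less. Of the condensins, which compact chromosomes, Smc2 had 81.2% and 13.7%, Smc4 78.7% and 30.8%, and Ncapd3, Ncapg2 and Ncapd2 had 61.3%, 46.2% and 38.8% of the cluster. The 6 kinesin motors Kif2a, Kif11, Kif18a, Kif23, Kif20b and Kif22 ranged from 28.8% to 60%. Among 11 genes of spindle microtubules, the bundling proteins Nusap1 (85% and 17.2%) and Prc1 (73.8% and 4.6%), the tubulins Tubb4b (85% and 22.4%), Tubb5 (80% and 32.5%), Tuba1b (80% and 28.6%) and Tuba1c (53.7% and 31.4%), and the destabilizer Stmn1 (77.5% and 29.8%) stood above Ckap5, Tacc1, Tacc3 and Aspm, which had 41.2% to 47.5%. The tubulin genes are close in sequence, and reads shared between them make their single values uncertain. Cdca3 (62.5% and 19.7%), Cep290 (35% and 13.8%) and Cep70 (28.8% and 22.4%) close the group.

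DNA replication and repair had 37 genes, with a median of 50% in the cluster and 21.6% outside it. The 5 genes of the MCM helicase, which opens the double strand, were detected in few of the cells: Mcm7 in 42.5%, Mcm6 in 33.8%, Mcm4 in 31.2%, Mcm3 in 30% and Mcm5 in 28.8%. Outside the cluster they ranged from 1.2% for Mcm6 to 30.9% for Mcm7. The 6 genes of nucleotide supply were detected more often, in 50% to 61.3%. Rrm2 and Rrm1, the subunits of ribonucleotide reductase, had 61.3% and 57.5%, Tyms 60%, Tk1 57.5%, Dtymk 51.2% and Dut 50%. At the fork, Top1 stood apart with 83.8% and 38%, while Tipin, Pcna (the sliding clamp, 52.5% and 31.6%), Lig1, Rfc4, Rpa3, Fen1, Pola1, Prim1 and Topbp1 had 30% to 56.2%. Origin genes Dbf4, Orc6 and Orc2 had 52.5%, 37.5% and 32.5%, and Orc6 was 2.0 points apart from the other cells. Of the regulators of entry into S phase, Tfdp2, the dimer partner of E2F factors, had 93.8% and 28.7%, against 25% and 20% for its paralog Tfdp1. E2f8 had 51.2%, and the cyclins E Ccne2 and Ccne1 35% and 26.2%. Esco2, which acetylates cohesin, had 67.5% and 8.3%, the clamp-binding Pclaf 57.5% and 8.6%, and the histone mRNA binding protein Slbp 60% and 28.3%, and Smc6, Hpf1, Ube2t and Fam111a had 42.5% to 56.2%.

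The promoters of the 3 genes of G2 and M phase with the largest difference are shown over the same window and with the same letters in capitals.
Ube2c, chr2:164769679-164769958, plus strand: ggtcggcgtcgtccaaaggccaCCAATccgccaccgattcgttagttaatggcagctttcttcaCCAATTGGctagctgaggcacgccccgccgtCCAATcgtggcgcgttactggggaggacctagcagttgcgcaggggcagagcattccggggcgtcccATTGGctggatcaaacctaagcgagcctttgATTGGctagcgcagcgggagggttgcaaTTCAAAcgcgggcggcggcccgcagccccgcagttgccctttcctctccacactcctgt
Ccnb2, chr9:70421525-70421804, minus strand: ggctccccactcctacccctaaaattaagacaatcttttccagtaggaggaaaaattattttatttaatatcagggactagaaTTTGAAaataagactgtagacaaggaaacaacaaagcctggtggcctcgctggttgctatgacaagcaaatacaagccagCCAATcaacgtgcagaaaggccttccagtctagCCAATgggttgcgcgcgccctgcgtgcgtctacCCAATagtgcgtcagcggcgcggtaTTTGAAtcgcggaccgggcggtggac
Mki67, chr7:135716350-135716629, minus strand: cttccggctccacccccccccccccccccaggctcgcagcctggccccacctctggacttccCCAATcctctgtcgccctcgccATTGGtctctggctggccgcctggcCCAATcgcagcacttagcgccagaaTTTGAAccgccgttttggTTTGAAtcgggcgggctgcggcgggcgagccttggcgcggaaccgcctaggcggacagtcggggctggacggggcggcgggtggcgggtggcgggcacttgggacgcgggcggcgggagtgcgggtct
All 3 held several copies of CCAAT and at least 1 of TTTGAA. Ccnb2 had CCAAT on its own strand 87, 54 and 21 bases before the start, which places the 3 copies 33 bases apart, and TTTGAA at base 5 after the start and 167 bases before it. Mki67 had TTTGAA 116 and 98 bases before the start and CCAAT at 188 and 141, with a copy on the opposite strand at 166. Ube2c had 6 copies of CCAAT over both strands, of which the pair at 186 and 183 bases shares letters, and TTTGAA on the opposite strand at 29. CCAAT was present in 78.9% of the 57 windows of 50 listed genes of G2 and M phase, in 62.1% of the 29 windows of S phase genes, in 44.8% of those of erythroid genes and in 43.8% of the 178 windows of genes in neither list. It was present in 40.3% of the windows of all genes in the table. TTTGAA or TTCGAA was found in 54.4%, 20.7%, 19%, 16.9% and 16.6% of the same sets. The share of both was largest for G2 and M phase among these sets. A match describes letters in a window and not a bound site, and windows of 1 gene can overlap.

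Chromatin, the nuclear envelope and transcription had 37 genes, and 33 of them were also listed for another non-hepatocyte cluster. The replacement histones H3f3a (98.8% and 56.8%) and H3f3b (97.5% and 55.3%) were close to complete in the cluster and common outside it, and as they encode one protein their reads may be shared. The variants H2afz and H2afx had 91.2% and 75%, and the histone chaperones Anp32b, Anp32e, Dnajc9, Asf1b, Nasp and Hirip3 and the acetyltransferase Hat1 ranged from 25% to 90%. Beside Hmgb2, the high mobility group genes Hmgb1, Hmgn2 and Hmgb3 had 82.5%, 67.5% and 60%. Lbr, the lamin B receptor that anchors heterochromatin to the nuclear envelope, was detected in 80% of the cluster and 13.7% of cells outside it, against 57.5% and 15.9% for Lmnb1, 68.8% and 32.3% for Tmpo and 57.5% and 33% for Lmna. The methyltransferases Ezh2 and Dnmt1 had 58.8% and 47.5%. Dek (88.7% and 36.8%), Psip1, Ctcf, Cbx5, Smchd1, Atrx, Sub1 and Ptma (81.2% and 67.7%) ranged from 40% to 88.7%. Ybx3, a cold shock protein, had 91.2% and 31.8%, and the stress gene Gadd45a 65% and 15.3%. Atad2, Mxd1, Gps2, Tsc22d4, Tceal9 and Resf1 ranged from 45% to 66.2%.

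RNA processing and translation had 32 genes, 31 of them also listed for another non-hepatocyte cluster, with a median difference of 17.4 points, the smallest of the 15 groups. The 16 splicing genes (Snrpg, Snrpd1, Snrpd2, Snrpf, Snrnp25, Snrnp70, Lsm2, Lsm4, Srsf3, Srsf7, Luc7l2, Ptbp3, Prpf4b, Pnn, Mbnl1 and Pnisr) reached 32.5% to 75% of the cluster. Translation genes were higher in part: Metap2, which trims the first methionine, had 98.8% and 40%, Rbm38, an RNA-binding protein of erythroid precursors, 82.5% and 13.6%, Rbm3 82.5% and 48.8%, Ppp1r15a, which restores translation after stress, 72.5% and 21.9%, and Rack1 81.2% and 69.4%. Rbm38 was the gene of the group with the lowest share outside the cluster. Mrpl57, Ifrd2, Eif3i and Larp4b had 42.5% to 70%, and the export and decay genes Rexo2, Alyref, Tent5c, Ranbp1, Eri1, Exosc8 and Xpo7 had 28.8% to 58.8%. Of a list of 44 genes for ribosome biogenesis, translation and nucleotide supply, 6 were in the table and Odc1, Mthfd2 and Ranbp1 were listed here.

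Proteolysis contributed 8 genes, all detected in at least 50% of the cluster. Ctse, an aspartic protease of erythroid cells, had 95% and 25%, and the ubiquitin ligases and adaptors Ubac1 (93.8% and 35.7%) and Mkrn1 (93.8% and 37%) followed. Ubb (96.3% and 68.2%), Sumo2, Josd2, Ctsd and Adam10 make up the rest. A further 6 genes are known for induction by interferon. Isg20, an exonuclease, was detected in 93.8% and 16.6%, and Ube2l6, the enzyme that transfers Isg15, in 61.3% and 24.5%, whereas Ifi27, Ly6e, Isg15 and Rsad2 had 46.2%, 45%, 42.5% and 38.8%. Isg20 and Ube2l6 were detected more widely in the cluster than the other 4 genes of the group, Isg15 itself included.

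In the secretory pathway (19 genes) Sec61g, a subunit of the translocon, had 98.8% and 50.3% and Smap1, a regulator of vesicle traffic, 97.5% and 33.9%. St3gal5, the synthase of the ganglioside GM3, had 86.3% and 58.1%, Arl6ip1 78.7% and 39.4%, and Reep5 71.3% and 39.6%. Tmem258, Pigq, Sec11c, Vamp5, Selenok, Spcs1, Srp19, Scoc, Spcs2, Vmp1, Laptm4a, Erlec1, Rab8b and Cln8 had 35% to 63.7%. Of 24 genes of metabolism and transport, Ucp2, a mitochondrial carrier, had 91.2% and 33.4%, Serinc3 91.2% and 52.7%, Odc1, the first enzyme of polyamine synthesis, 90% and 41.4%, Plaat3 76.2% and 31.8%, and Dhrs11 71.3% and 13.7%. The lipid enzymes Agpat4 (46.2% and 1.9%) and Lpcat1 had low shares in the other cells pooled. So did Pck2, the mitochondrial form of a gluconeogenic enzyme (32.5% and 2.1%). Single clusters differed from the pool: Pck2 was detected in 73.7% of HSC / fibroblast, and Agpat4 in 33.1% of T cell and 26.3% of HSC / fibroblast. Ptdss2, Abcb4, Gpcpd1, Atp8a1 and Plpp1 of lipid handling, Mthfd2, Asns and Glul of amino acid and folate metabolism, the carriers Slc16a10, Slc16a1, Slc3a2, Slc43a3, Nipa1 and Slc16a6, and Gda and Cox6b2 had 25% to 57.5%.

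The 23 genes of signaling and the cytoskeleton had a median of 52.5% in the cluster and 30.7% outside it. Apart from Spire1, low shares outside the cluster were found for Specc1 (61.3% and 4.3%), Sept8 (25% and 1.8%), Arrb1 (48.8% and 6.3%), Mylpf (31.2% and 6.3%) and the planar polarity gene Vangl1 (61.3% and 7.5%). Of these, Sept8 was also listed for T cell (31.8%) and HSC / fibroblast (26.3%), and Arrb1 for HSC / fibroblast (57.9%). Wnk1, a kinase that governs ion transport, had 80% and 43.4%, Calm3 73.8% and 35.1%, Asap1 72.5% and 22.2%, and Trak2, an adaptor that moves mitochondria, 63.7% and 26.3%. Ywhah, Rap1a, Dynll1, Sri, Akap13, Tln1, Gnai2, Ptp4a3, Pim1, Siva1, Map4k5, Cyth3 and Bcl2l11 had 25% to 70%. The last 26 genes were put in no group. Grina (82.5% and 47%) and the noncoding RNA Lockd (77.5% and 8.1%), transcribed next to the cell cycle inhibitor Cdkn1b, were detected most widely. Ncoa7 (71.3% and 5.1%), Cdr2, Fam117a (66.2% and 3.4%), Nxpe2 (66.2% and 8.9%), Rec114 (57.5% and 6.9%), Bex3 (35% and 5.6%), Emilin2 (27.5% and 5.7%), Tmcc2, Tinagl1 and Endod1 had low shares in the other cells pooled. Tmcc2 and Tinagl1 were nonetheless higher in HSC / fibroblast, Bex3 in T cell (41.2%) and Emilin2 in Kupffer cell (30.8%) and Neutrophil (30.4%). Fam117a was also listed for T cell (34.5%). Fam53b, Ccdc34, Fam241a, Crip1, Dleu2, Tnfaip2, Fundc2, Jpt1, Hectd4, Paqr9, Pqlc1, Syce2, Ehbp1l1 and Tmem131 ranged from 32.5% to 72.5%.

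Genes from 12 chosen lists of other cell types were nearly absent from the cluster's genes. Of 233 genes in 12 lists of other cell types 118 were in the table, and 2 of them (1.69%) were listed for the cluster, against 18.2% of all genes. These were Aqp1 from the endothelial list and Cd24a from the cholangiocyte list, both of which are also red cell genes. None of the 22 hepatocyte, 25 Kupffer cell and macrophage, 8 neutrophil, 13 B cell, 12 T, NK and innate lymphoid cell, 13 stellate cell and fibroblast, 3 megakaryocyte, 3 mast cell, basophil and eosinophil, 2 stem and progenitor or 1 dendritic cell genes in the table was listed. The table gives no share in the cluster for a gene that is not listed, so low levels of these genes could not be examined. Many of these genes are in the table through their own cluster. All 25 Kupffer cell and macrophage genes were listed for Kupffer cell, and all 13 stellate cell and fibroblast genes for HSC / fibroblast. The low share is therefore a description.

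Which of the cluster's genes were listed for other non-hepatocyte clusters was then counted. Of the 320 genes 213 (66.6%) were also listed for at least 1 of the 6 other clusters, as were 74% of all genes in the table. A listed gene need not be more frequent in the cluster that lists it. In Kupffer cell, Tfrc (13.2%) and Fzr1 (11.3%) stood below their shares outside the red blood cell cluster (29.1% and 31.8%). Such rows are counted as shared, and their number was not determined. The other 107 (33.4%) were listed for none of the 6, and 100 of them for no other cluster of any kind. Among all 1755 genes, 1115 were listed for 2 or more clusters and the rest for 1 only. A listing for 1 cluster only was therefore not particular to the red blood cell genes. When only rows at least 2 times apart were taken, 71 of 196 genes (36.2%) were shared. That filter was applied to the rows of the other clusters too. The share of all genes under it was not computed, so 36.2% cannot be set against the 74%. T cell shared 145 genes, which is 45.3% of the red blood cell list and 24.2% of its own, and it listed 34.1% of all genes in the table. B cell shared 122 (38.1% and 23.9%, with 29.1% of all genes). These 2 clusters took a larger share of the red blood cell list than of the table. HSC / fibroblast shared 78 (24.4% and 14.6%, with 30.5% of all genes) and Kupffer cell 69 (21.6% and 13.8%, with 28.4%), both below their share of the table. Neutrophil shared 40 (12.5% and 17.7%, with 12.9%) and Endothelial cell 20 (6.25% and 20.4%, with 5.58%), both near it. Counted by the number of other clusters, 76 genes were shared with 1, 64 with 2, 32 with 3, 33 with 4 and 6 with 5, the last being Ucp2, Anp32b, H3f3b, Dleu2, Tsc22d4 and Gnai2. All 6 listed Serinc3 and Resf1.

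**Figure D4:**
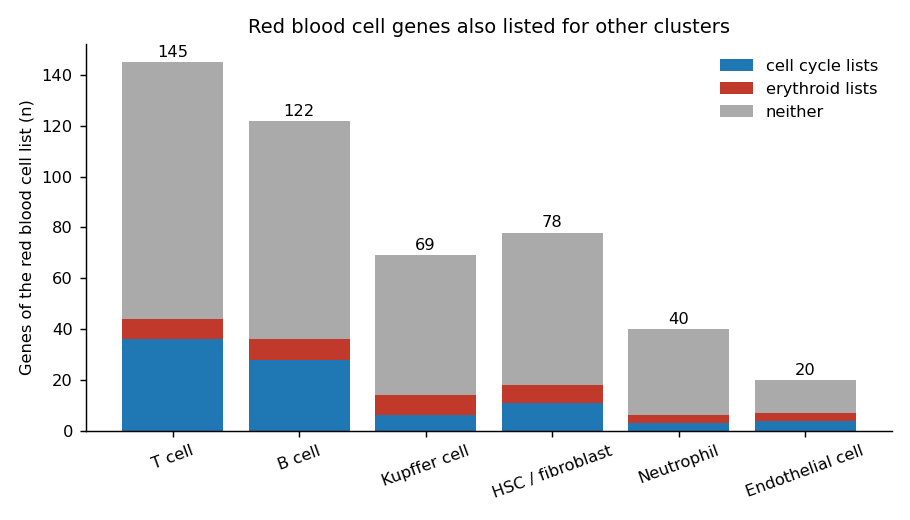
Number of the 320 red blood cell genes (vertical axis) that were also listed for each of the 6 other non-hepatocyte clusters, stacked by cell cycle lists, erythroid lists and neither. T cell and B cell share the most, 145 and 122, of which 36 and 28 are cell cycle genes.

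Sharing differed between the functional groups, which was not tested. No red cell enzyme and 2 of the 13 heme synthesis genes (Atpif1 and Tmem14c) were listed for another non-hepatocyte cluster, compared with 31 of 59 for mitosis, 18 of 37 for replication, 33 of 37 for chromatin and 31 of 32 for RNA processing. The other erythroid groups were shared more often, with 8 of 13 genes of the membrane and surface, 6 of 9 regulators and 2 of 3 iron genes. The group of red cell enzymes also differs from the list of erythroid enzymes and antioxidant proteins. Of the 17 listed genes of that list 6 were shared, and all 6 stand in other groups here. Of the 137 genes in the cell cycle or erythroid lists 73 were listed for no other non-hepatocyte cluster, and of the 183 genes in neither 34 were. The cell cycle genes shared with T cell and B cell were detected in more of the red blood cell cluster. Of 36 shared with T cell 34 had the higher share here, with medians of 71.9% and 34.5%, and of 28 shared with B cell 26 did, with medians of 76.8% and 37.7%. Ptma, in 95.3% of T cell and 97.6% of B cell, was an exception in both. HSC / fibroblast went the other way: of 11 shared cell cycle genes 2 had the higher share here, with medians of 60% and 68.4%. All those shared with Kupffer cell (6), Neutrophil (3) and Endothelial cell (4) had the higher share here. Mki67 illustrates the pattern for T cell and B cell, with 92.5% in this cluster, 42.5% in B cell and 25.7% in T cell. Ube2c had 87.5% here and 31.1% in T cell. Hmgb2 was more even, with 75.7% in T cell, 86.9% in Neutrophil and 53% in B cell.

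In all, 99 of the 320 genes had a higher share in another non-hepatocyte cluster that listed them, and for 49 of these the highest was HSC / fibroblast. That cluster held 0.171% of all cells and its shares came in steps of at least 5.2 points, and of the 78 genes shared with it 59 were higher there. Without it 66 genes had a higher share elsewhere. Among them Mbnl1 had 52.5% here and 89.2% in T cell, Spcs2 46.2% here and 83% in B cell, Glul 38.8% here and 74.5% in Kupffer cell, and Mxd1 47.5% here and 81.9% in Neutrophil. Of the 99 genes 10 were in the cell cycle lists and 5 in the erythroid lists. Per the study's methods, cells above a ceiling of detected genes were removed as potential doublets. No doublet caller was run here, and the part of remaining doublets in the shared genes was not tested. A hepatocyte cluster also listed 35 of the genes, with 16 for Hepatocyte5, 14 for Hepatocyte4, 11 for Hepatocyte3, 2 for Hepatocyte2 and 0 for Hepatocyte1. Hepatocyte5 and Hepatocyte4 listed 434 and 443 of the 1755 genes in the table and took 5% and 4.38% of the red blood cell list. Hepatocyte3 listed 37 genes and took 3.44%, which was 29.7% of its own list. Hepatocyte2 and Hepatocyte1 listed 10 and 31 genes. Of the shared genes, 15 of 16 were higher in Hepatocyte5 and 10 of 14 in Hepatocyte4, while all 11 were lower in Hepatocyte3.

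**Figure D5:**
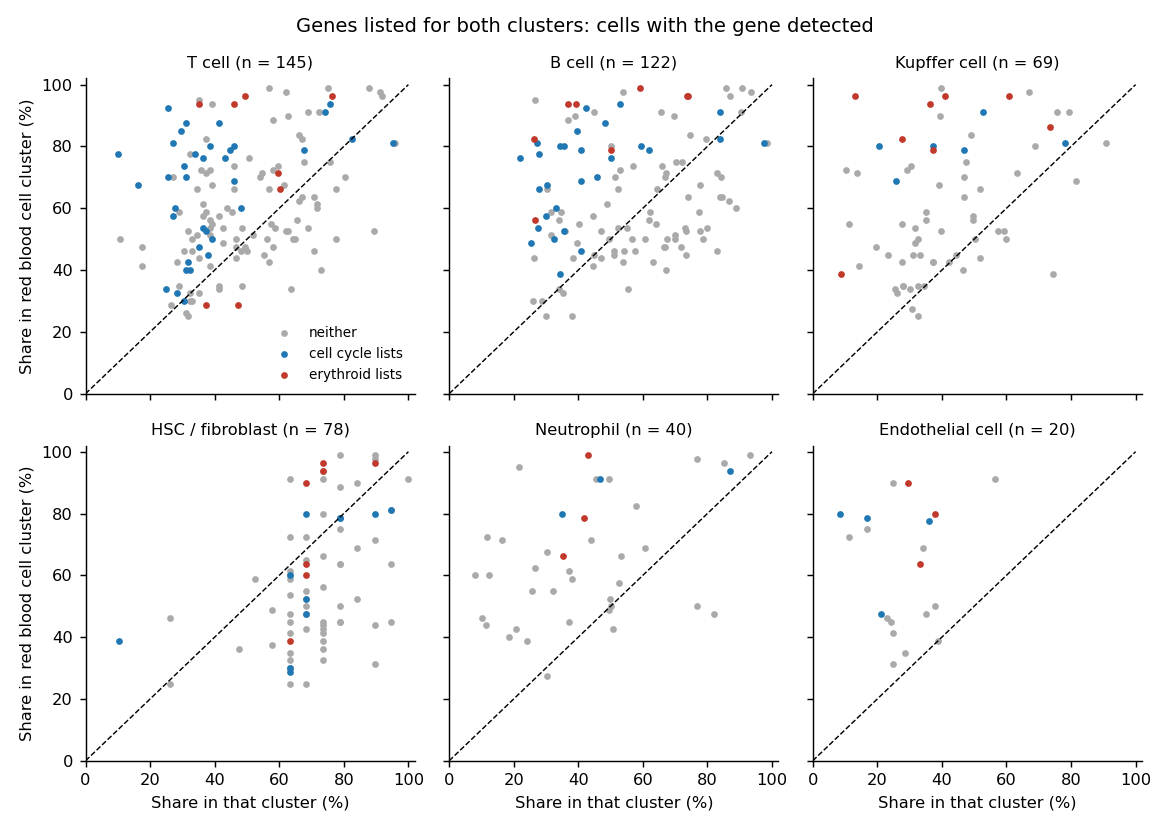
Share of cells with the gene detected in the red blood cell cluster (vertical axis, percent) against the share in the other cluster (horizontal axis, percent), 1 panel a cluster and 1 point a shared gene, colored as cell cycle lists, erythroid lists or neither, with the line of equal shares dashed. Cell cycle genes lie above the line for T cell (34 of 36) and B cell (26 of 28), and most points for HSC / fibroblast lie below it (59 of 78).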

How the data were processed

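The study measured RNA of single cells with the Chromium 3′ kit (v3.1 chemistry) in 1 PBS and 1 rIL-33 library, and samples were grouped by their titles. UMIs were counted with Cell Ranger on mm10. Per the study's methods, cells were filtered on genes detected and mitochondrial share, counts were scaled per cell and log-transformed, cells were clustered with Seurat, and markers were listed with FindAllMarkers. The deposited table gives, for each gene and cluster, the fraction of the cluster's cells and of all other cells with a value above 0, as the authors computed it over both libraries. Whether corrected values entered it is not given in the sources used here. The table also holds the authors' fold changes and p-values, which were not used, and a second table of hepatocyte clusters was left out.

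Fractions were written as percentages. Cluster sizes were fitted by least squares, since the overall share of a gene is the same whichever cluster lists it. The fit was checked on simulated data. The error allowed in that check was larger than the fitted HSC / fibroblast share, so it cannot vouch for sizes that small. The share of positive cells in the cluster follows from both fractions and the size, with bounds for rounding. The gene lists and functional groups were chosen with earlier results of these data known. Values are named for the markers, genes of the lists and the 10 genes with the largest ratio and the 10 with the largest difference, and other genes by group, while some genes of these sets are not reported here. Gene positions are from GENCODE M21 (GRCm38), found for 318 genes, and promoters from RefSeq, found for 257. Python 3 with NumPy and pandas was used. Alternatives were stricter rows and other size fits.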

Additional observations from a re-analysis of the deposited data

How the results depend on the processing

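The counts depend on which rows are taken. With only rows whose share in the cluster is at least 2 times that of the other cells, the listed genes fell from 320 to 196, and those also listed for another non-hepatocyte cluster from 213 to 71; cell cycle genes went from 87 to 69 and erythroid genes from 50 to 40, within 1.5 times of the full counts. With only rows at least 10 points apart the 4 counts were 285, 162, 82 and 47. Both settings were applied to the rows of every cluster, and no share over all genes was computed under them. Leaving out the HSC / fibroblast cluster, a choice made after seeing the data, gave 198 shared genes. The share of all cells was 0.711% by least absolute deviations, 0.709% from rows at least 10 points apart and 0.707% when all sizes were scaled to a total of 100%, each within 1 SD of the single-gene values. No paired analysis was possible because there is 1 library per condition and both are pooled. No library could be left out for the same reason. Without replicates, no value has an error for sampling of mice, and none was computed for sampling of cells. Genes at 0 or near 0 outside the cluster are limited by rounding to 0.1 points.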
